A study of Mus musculus with 8 samples.

Results

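The genes described here encode the subunits of the mouse proteasome, its immune catalytic subunits, its activators and its assembly factors, in cultured immune cells of mice labelled TCR1640 or SJL/J. They were taken as every protein-coding gene of the count table whose symbol begins with Psm followed by one of the letters a to g and a number. This gave 50 of the 52636 genes in the table, of which 48 had enough counts to be tested. The others, the testis alpha subunit Psma8 and the thymic catalytic subunit Psmb11, held at most 8 counts in any column and are not measurable here. Psmc3ip entered by its name alone: it is a cofactor of meiotic recombination and not a subunit, and it is counted among the 48.

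The proteasome is the protease that degrades ubiquitin-tagged proteins in the cytosol and nucleus. Its barrel-shaped core has outer rings of alpha subunits and inner rings of beta subunits, of which Psmb5, Psmb6 and Psmb7 carry the active sites in most tissues, and a regulatory particle with a ring of ATPases unfolds substrates and feeds them in. Lymphocytes, and other cells exposed to interferon gamma, build the immune catalytic subunits Psmb8, Psmb9 and Psmb10 into new cores in place of Psmb5, Psmb6 and Psmb7 respectively, which changes the peptides available for display on MHC class I molecules.

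Immune cells had been isolated from spleens and lymph nodes of pre-symptomatic mice aged 35 to 55 days, and the same culture was given to all 4 groups. It lasted 4 days, with anti-CD3 antibody at 1 µg/ml, IL-23 at 20 ng/ml, TGF-β at 4 ng/ml, IL-6 at 20 ng/ml and IL-12 at 3 ng/ml, conditions named TH1/TH17 in the labels. The TCR1640 strain is transgenic for a T cell receptor and SJL/J mice served as the wild type; the promoter that drives the transgene is not given in the sources used here. The groups were TCR1640 females, TCR1640 males, SJL/J females and SJL/J males, each with 2 columns of counts that sum to between 3765291 and 5116467, and no source says whether the columns of a group came from separate mice.

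Checks on the libraries came before any comparison. Over genes, the chi-square per degree of freedom was 1.05 to 1.08 between the 2 columns of a group, close to sampling noise, against 3.12 to 17.05 between columns of different groups, so the columns of a group were summed and counted as 1 sample. Xist and the Y-linked gene Eif2s3y matched the sex labels in every column, with 0 counts of Eif2s3y in the female columns and 87 to 124 in the male ones. T cell receptor segments went against the strain labels: the joining segment Traj43 made up 75.6% and 79.2% of alpha joining counts in the libraries labelled SJL/J female and male, against 5.04% and 2.91% in those labelled TCR1640. Every strain direction below is therefore one between labels, and whether the strain labels were exchanged was not tested. The counts also leaned towards the wrong strand: of 901 pairs of a protein-coding gene and an overlapping noncoding feature on the opposite strand, the noncoding feature held more counts in 699, or 77.6% (exact 95% interval 74.7% to 80.3%). Tsix, the gene antisense to Xist, held 3553 to 3935 counts in each female column, where Xist held 668 to 784. In each male column Tsix held 0 or 1 and Xist 25 to 44. The strand setting of the counting is not given in the sources used here, although the library kit was a stranded one.

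Counting on the wrong strand would affect every member, overlapped or not, and whether it took place was not tested. The strand matters most directly for the immune subunit Psmb8, 498 bases of whose exons are also exon sequence of the antisense gene Gm20496. Over all 8 columns Gm20496 held 66641 counts and Psmb8 held 3306, so the antisense feature was 20.2 times higher. A 60-base stretch of coding sequence in exon 5 of 7 of Psmb8, on chromosome 17 at chr17:34200170-34200229 (GRCm38), is shown from both annotated transcripts because a read from it is assigned to one or the other by strand alone. The lines are reverse complements of each other over all 60 bases, so no base is set in capitals.
Psmb8, plus strand: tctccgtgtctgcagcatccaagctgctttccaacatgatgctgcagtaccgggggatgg
Gm20496, minus strand: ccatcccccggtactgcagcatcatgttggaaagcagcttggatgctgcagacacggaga
The longest run that the transcripts share in this way is 124 bases. The Psmb8 values below are those of the Psmb8 feature itself, and the Gm20496 values are given beside them.

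Promoters of 42 of the 50 members were found in the RefSeq table (GRCm38.p6, 250 bases before to 50 after the start). Psmb5 and Psmb6, the constitutive subunits whose levels are described next, both held the letters TGACNNNGC, the core of the antioxidant response element that the proteasome regulator Nfe2l1 binds; Psmb7 has no entry. Their 250 bases before the start are shown with this motif in capitals, for Psmb5 at chr14:54617996-54618245 on the minus strand and for Psmb6 at chr11:70525107-70525356 on the plus strand.
Psmb5 promoter: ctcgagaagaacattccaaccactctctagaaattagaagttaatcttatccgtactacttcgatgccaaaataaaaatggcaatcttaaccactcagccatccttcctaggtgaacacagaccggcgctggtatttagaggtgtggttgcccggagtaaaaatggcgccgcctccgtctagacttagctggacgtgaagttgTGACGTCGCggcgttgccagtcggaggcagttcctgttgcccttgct
Psmb6 promoter: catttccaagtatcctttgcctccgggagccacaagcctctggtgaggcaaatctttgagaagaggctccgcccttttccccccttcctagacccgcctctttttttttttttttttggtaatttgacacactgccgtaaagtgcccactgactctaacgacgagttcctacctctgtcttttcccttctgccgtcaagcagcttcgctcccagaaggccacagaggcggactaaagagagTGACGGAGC
On either strand the motif stood in 6 of 42 member promoters (14.3%), against 14.0% of all 27025 promoters, so its share among the members was near that of promoters at large. The interferon-stimulated response element core was in 5 (11.9%, against 3.99%), namely Psmb3, Psmd4, Psmd9, Psme1 and Psmg4. It was in 0 of the 3 promoters of the immune catalytic subunits. The kappa B core was in 24 (57.1%, against 53.5%). A match describes these letters only.

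Psmb6 and Psmb7, 2 of the 3 constitutive catalytic subunits, were lower in the libraries labelled TCR1640, and the immune catalytic subunit Psmb9 was higher. Levels per column below are counts-per-million values (CPM), scaled on the column total. Psmb7, which carries the trypsin-like site, stood at 14.7 and 16.5 in TCR1640 females, 17.4 and 16.2 in TCR1640 males, 26.8 and 19.2 in SJL/J females and 22.8 and 25.8 in SJL/J males. All 4 TCR1640 columns were below all 4 SJL/J columns. The log2 fold change of Psmb7, TCR1640 over SJL/J across both sexes, was -0.51 (SE 0.17, adjusted p = 0.0139, edgeR's quasi-likelihood test with Benjamini-Hochberg adjustment over 17261 genes), a fall that did not pass without SJL/J female replicate 1 (adjusted p = 0.0948).

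Psmb6, which carries the caspase-like site, stood at 10.0 and 12.1 in TCR1640 females, 13.1 and 13.5 in TCR1640 males, 14.2 and 14.0 in SJL/J females and 19.7 and 22.2 in SJL/J males. The labels did not overlap here either, though the TCR1640 males were close to the SJL/J females. Its log2 fold change was -0.48 (SE 0.19, edgeR adjusted p = 0.0426). That call was lost when any one column other than TCR1640 female replicate 2 was left out, with adjusted p of 0.0517 to 0.112.
Psmb5, which carries the chymotrypsin-like site, stood at 5.92 and 5.18 in TCR1640 females, 10.2 and 10.2 in TCR1640 males, 8.05 and 9.34 in SJL/J females and 11.7 and 12.5 in SJL/J males. The TCR1640 males lay above the SJL/J females, so the labels overlapped, and the log2 fold change of -0.39 (SE 0.23) did not pass (edgeR adjusted p = 0.222).

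Psmb9, the immune counterpart of Psmb6, had levels of 136 and 146 in TCR1640 females, 156 and 169 in TCR1640 males, 116 and 112 in SJL/J females and 133 and 125 in SJL/J males. All 4 TCR1640 columns were above all 4 SJL/J columns. Its log2 fold change was 0.36 (SE 0.13, edgeR adjusted p = 0.021). The call was lost without TCR1640 male replicate 2 (adjusted p = 0.0704) or without SJL/J male replicate 2 (adjusted p = 0.0581). Psmb9 lies at chr17:34181987-34187764 and shares 212 bases of exon sequence with the peptide transporter gene Tap1 on the other strand, whose own log2 fold change was 0.27 (edgeR adjusted p = 0.0928).

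Psmb8, the immune counterpart of Psmb5, was at 84.8 and 92.0 in TCR1640 females, 109 and 117 in TCR1640 males, 82.3 and 87.4 in SJL/J females and 106 and 92.0 in SJL/J males. Columns of both labels overlapped, and its log2 fold change of 0.16 (SE 0.13) did not pass (edgeR adjusted p = 0.40). The antisense feature Gm20496 was at 0.26 (SE 0.11, edgeR adjusted p = 0.058), also short of the threshold. Psmb10, the immune counterpart of Psmb7, was at 27.6 and 21 in TCR1640 females, 20.7 and 23.5 in TCR1640 males, 20.0 and 18.2 in SJL/J females and 21.8 and 23.8 in SJL/J males. The SJL/J females were below the other 3 groups, which overlapped, and the log2 fold change of 0.18 (SE 0.17) did not pass (edgeR adjusted p = 0.48). Per kilobase of exon, as counted for these features, Psmb9 was the highest of the 6 subunits in every group (31.3 to 44.8 CPM per kilobase). Psmb7 was the lowest (4.67 to 6.97). Opposite-strand features held 20.2 times the counts of Psmb8 (Gm20496) and 31.4 times those of Psmb7 (Nek6). The order of the 6 subunits thus depends on the strand counted, which was not tested. These are mixed immune cells, so fewer cells of a type and less RNA per cell cannot be told apart.

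**Figure D1:**
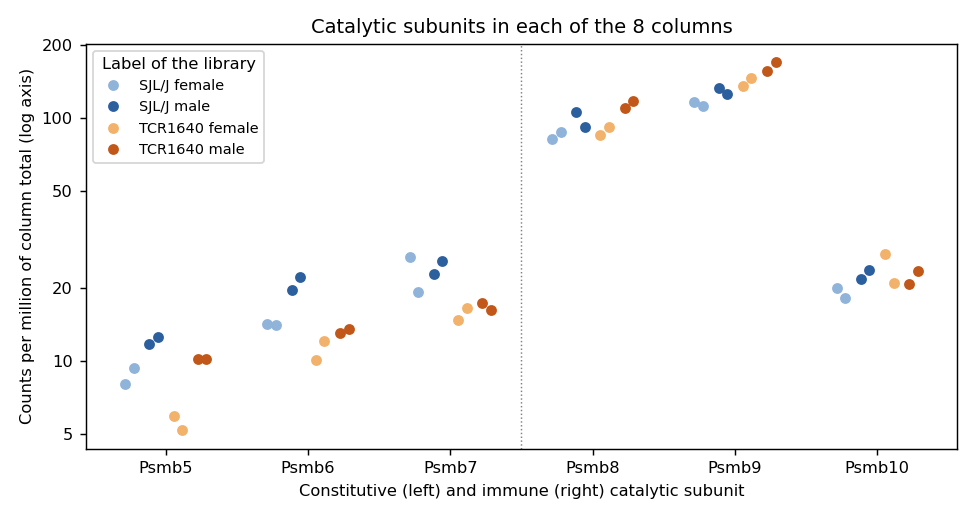
Levels in CPM, scaled on the column total (vertical log axis), of the constitutive subunits Psmb5, Psmb6 and Psmb7 and the immune subunits Psmb8, Psmb9 and Psmb10, with 1 point per column and colours for the 4 groups. The TCR1640 points of Psmb6 and Psmb7 lie below, and those of Psmb9 above, all SJL/J points; for Psmb5, Psmb8 and Psmb10 the labels overlap.

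The balance between the immune and the constitutive set was read as the log2 ratio of summed Psmb8, Psmb9 and Psmb10 counts to summed Psmb5, Psmb6 and Psmb7 counts, which does not depend on library size. It was 2.98 in TCR1640 females (exact 95% counting interval 2.79 to 3.17) and 2.89 in TCR1640 males (2.74 to 3.04). In SJL/J females it was 2.25 (2.09 to 2.42) and in SJL/J males 2.13 (1.98 to 2.28). Single columns ran from 2.81 to 3.02 under the TCR1640 label and from 1.99 to 2.35 under the SJL/J label, without overlap. The immune subunits thus made up 88.7% and 88.1% of these counts in TCR1640 females and males, against 82.7% and 81.4% in SJL/J females and males.

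The ratio was higher under the TCR1640 label by 0.72 in females (95% counting interval 0.48 to 0.97) and by 0.76 in males (0.55 to 0.97), and by 0.74 on average (0.58 to 0.90). These intervals cover counting error only, and with 2 samples against 2 an exact permutation test could not go below p = 0.333. Male minus female differences were -0.09 (-0.33 to 0.15) under the TCR1640 label and -0.13 (-0.35 to 0.09) under SJL/J, both with intervals that span equality. The ratio of each subunit pair was higher too. Psmb9 over Psmb6 was 0.82 higher (0.55 to 1.10), Psmb10 over Psmb7 was 0.69 higher (0.39 to 1.00) and Psmb8 over Psmb5 was 0.58 higher (0.23 to 0.93) under the TCR1640 label. Psmb10 was the one immune subunit with fewer counts than its partner in any group: its log2 ratio to Psmb7 was 0.63 and 0.40 in TCR1640 females and males, and -0.26 and -0.10 in SJL/J females and males.

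**Figure D2:**
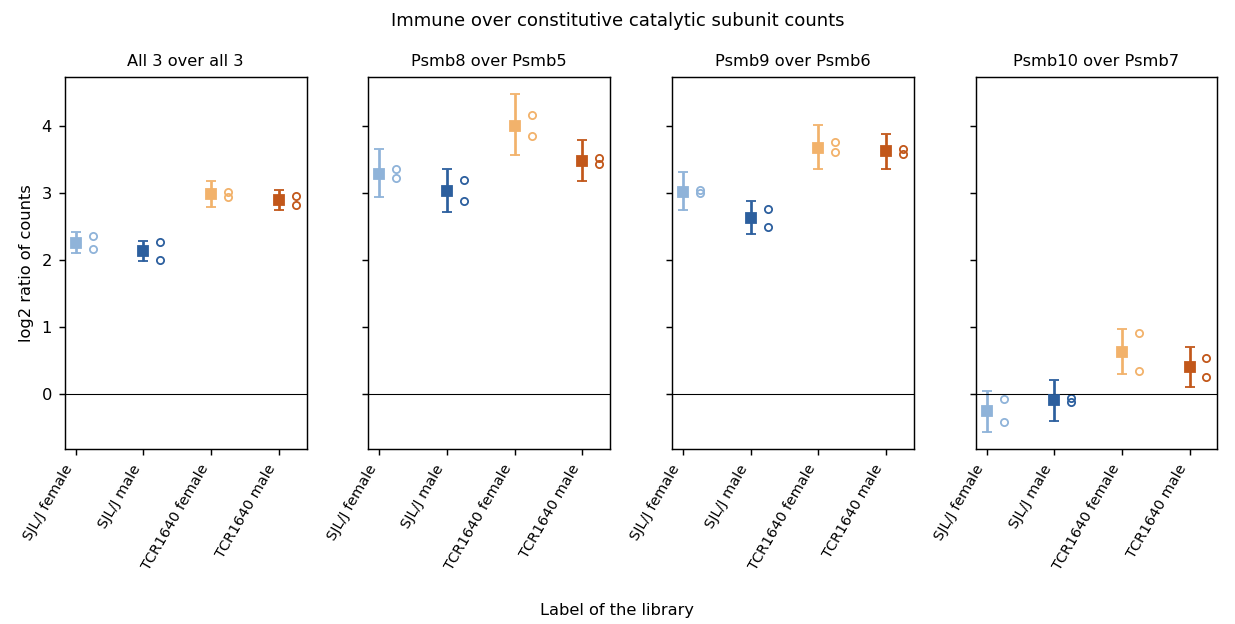
Log2 ratio of immune to constitutive catalytic subunit counts, for all 3 over all 3 and for each subunit pair, in the 4 groups. Squares are summed samples with exact 95% counting intervals and open circles single columns; for all 3 over all 3 the TCR1640 columns lie between 2.81 and 3.02 and the SJL/J columns between 1.99 and 2.35.

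Other counts bear on this ratio. The antisense Gm20496 and the kinase gene Nek6, whose exons share 405 bases with Psmb7 on the other strand, held 20.2 and 31.4 times the counts of the members they overlap, and Nek6 had a log2 fold change of -0.27 (SE 0.11, edgeR adjusted p = 0.0627). With the opposite features in place of the overlapped members the strain difference in the ratio was 0.53 rather than 0.74. Most counts in that ratio are those of Gm20496 and Nek6, and only 405 of the 10714 exon bases of Nek6 are shared with Psmb7. The value of 0.53 is therefore not a second measure of the immune to constitutive balance. With the counts of near-identical processed copies added to each subunit it was 0.70.

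Over the whole complex, 12 of the 48 tested members passed the test between strain labels, 1 of them higher (Psmb9) and 11 lower under the TCR1640 label. Of all genes tested 26.5% passed, 13.4% higher and 13.1% lower, so the share of members called was near the background, while 22.9% of them were called lower. The median log2 fold change of the members was -0.23, with 42 of 48 below 0, beside 0.01 over all genes tested. DESeq2 called 1 member, Psmd1, and 1339 of 18674 genes. Leaving out TCR1640 male replicate 2 left 5 member calls (3553 of 17144 genes), and leaving out SJL/J male replicate 2 left 6 (3993 of 17310 genes). The members' counts summed to 0.183% to 0.194% of a TCR1640 column and 0.199% to 0.226% of an SJL/J column.

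Among the 7 alpha ring subunits, which form the gate of the core, 2 fell and 5 did not pass (median -0.26). Psma5 fell by 0.88 on the log2 scale (SE 0.30, edgeR adjusted p = 0.0173), from low levels of 2.93 to 4.69 CPM in the TCR1640 columns against 4.44 to 8.94 in the SJL/J columns, which overlap slightly. The value was -1.36 in males (95% counting interval -2.01 to -0.74) and -0.32 in females (-1.03 to 0.37), and the call was lost without either TCR1640 male replicate 2 (adjusted p = 0.0606) or SJL/J male replicate 2 (adjusted p = 0.11). Psma4 was at -0.37 (SE 0.14, edgeR adjusted p = 0.0326), a call lost without any one of TCR1640 female replicate 1, TCR1640 male replicate 2, SJL/J female replicate 1 or SJL/J male replicate 2. Psma3 was the highest of the ring at 0.23 (SE 0.23, edgeR adjusted p = 0.50). None of the 4 structural beta subunits, which complete the inner rings without an active site, passed the test (median -0.20); Psmb2 was at -0.27 and Psmb1 at -0.02.

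**Figure D3:**
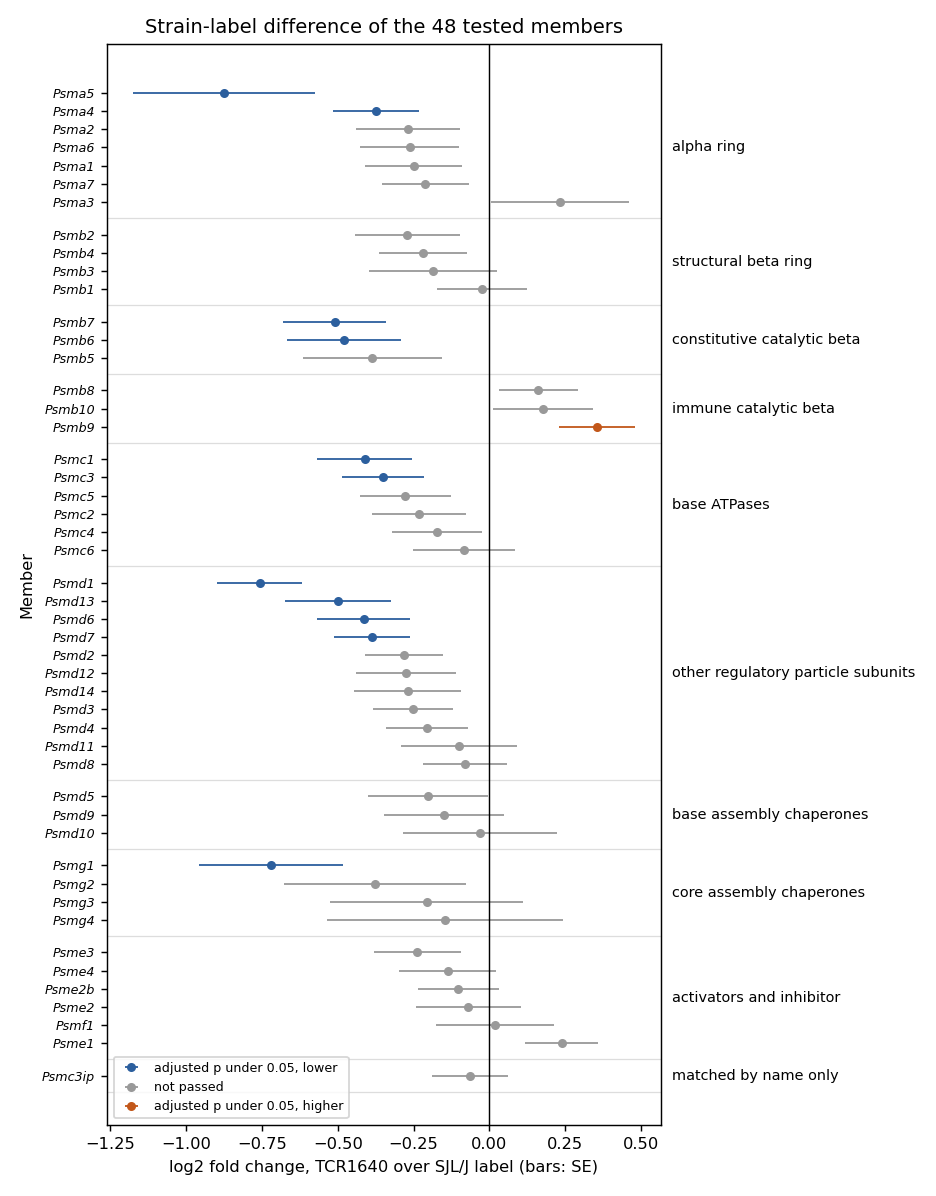
Log2 fold change, TCR1640 over SJL/J across both sexes, of the 48 tested members by role, with bars for the SE and colours for the edgeR call at an adjusted p of 0.05. Of the members, 42 lie below 0; Psmb9 at 0.36 is the 1 called higher and Psma5 at -0.88 the lowest.

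The regulatory particle held the clearest single difference. Psmd1, the large scaffold subunit of its base (chr1:86064387-86139151), was at 41.7 and 43.6 CPM in TCR1640 females, 39.7 and 45.9 in TCR1640 males, 72.2 and 64.5 in SJL/J females and 84.5 and 75.9 in SJL/J males. The labels were well apart, with every TCR1640 column under every SJL/J column. Its log2 fold change was -0.76 (SE 0.14, edgeR adjusted p = 1.12e-06), with -0.65 (95% counting interval -0.85 to -0.46) in females and -0.86 (-1.04 to -0.68) in males. It passed in every setting tried for single genes, DESeq2 included, with an adjusted p of at most 0.00747. The serotonin receptor gene Htr2b lies within it on the other strand, shares 252 bases of exon sequence and held 280 counts to the 1955 of Psmd1; its log2 fold change was -0.75 (edgeR adjusted p = 0.00992).

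Of the 11 other regulatory particle subunits apart from the ATPases, Psmd1 included, 4 fell and 7 did not pass (median -0.28). Psmd7, a lid subunit that pairs with the deubiquitinase Psmd14, was at 109 to 121 CPM in the TCR1640 columns and 151 to 165 in the SJL/J columns, without overlap. Its log2 fold change was -0.39 (SE 0.13, edgeR adjusted p = 0.0105), no opposite-strand gene shares its exons, and the call held with any one column left out (adjusted p up to 0.0246). The lid subunits Psmd13 (-0.50, edgeR adjusted p = 0.0186) and Psmd6 (-0.42, edgeR adjusted p = 0.0278) were the others that fell, and Psmd8 was nearest to 0 at -0.08. The call of Psmd13 was lost without TCR1640 male replicate 2, and that of Psmd6 without it, TCR1640 female replicate 1 or SJL/J male replicate 2. Exons of Psmd13 share 342 bases with the deacetylase gene Sirt3, which held 657 counts to its 638. The log2 fold change of Sirt3 was of the other sign, at 0.32 (SE 0.17), but did not pass (edgeR adjusted p = 0.166).

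Among the 6 ATPases that unfold substrates, Psmc1 and Psmc3 fell and 4 did not pass (median -0.25). Psmc1 was at 22.2 to 26.8 CPM under the TCR1640 label and 26.4 to 36.7 under SJL/J, with a slight overlap, and its log2 fold change was -0.41 (SE 0.16, edgeR adjusted p = 0.0347). Psmc3 was at -0.35 (SE 0.14, edgeR adjusted p = 0.0377), and Psmc6 was the highest at -0.08. The call of Psmc1 was lost without any one of TCR1640 female replicate 2, TCR1640 male replicate 1, SJL/J female replicate 2 or SJL/J male replicate 1, and that of Psmc3 without any one column except replicate 1 of the females of either label. The 3 chaperones that assemble the base (Psmd5, Psmd9 and Psmd10) did not pass, at -0.20 to -0.03. Of the 4 chaperones that assemble the core, Psmg1 fell by 0.72 on the log2 scale (SE 0.24, edgeR adjusted p = 0.012), from 9.58 to 12.7 CPM in the SJL/J columns to 5.15 to 8.80 in the TCR1640 columns. That call held with any one column left out (adjusted p up to 0.0478), and the other 3 core chaperones, all with fewer counts, did not pass.

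The activators cap the core in place of the regulatory particle, Psme1 and Psme2 forming the interferon-inducible cap, Psme3 the nuclear one and Psme4 a large single-chain one, while Psmf1 inhibits the core. None of these 6 genes, Psme2b included, passed between strain labels (median -0.09). Psme1, the member with the most counts, was at 208 to 227 CPM in the TCR1640 columns and 177 to 199 in the SJL/J columns. The labels did not overlap, but the log2 fold change of 0.24 (SE 0.12) missed the threshold (edgeR adjusted p = 0.14). Its partner Psme2 was at -0.07, Psme3 at -0.24, Psme4 at -0.14 and Psmf1 at 0.02. Psme2b is 99.4% identical to Psme2 over 794 bases of transcript and held 2727 counts to its 633, so the division of reads between the 2 genes is uncertain.

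In females alone, comparing 1 summed sample with another, 11 of 48 members had a log2 ratio of at least 0.32 in size with a counting interval that excluded equality, 2 of them higher (Psmb9 and Psmb10) and 9 lower under the TCR1640 label, against 32.9% of all genes tested (16.9% higher, 16% lower). In males 21 did, 1 higher (Psmb9) and 20 lower, against 38.3% (18.9% higher, 19.4% lower). The lower calls in males were thus 41.7% of the members. By sign alone, 32 members were lower in both sexes, 4 higher in both and 12 opposite, that is 66.7% and 8.33% of the members beside 35.1% and 36.8% of all genes. These counts have no replicate check.

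**Figure D4:**
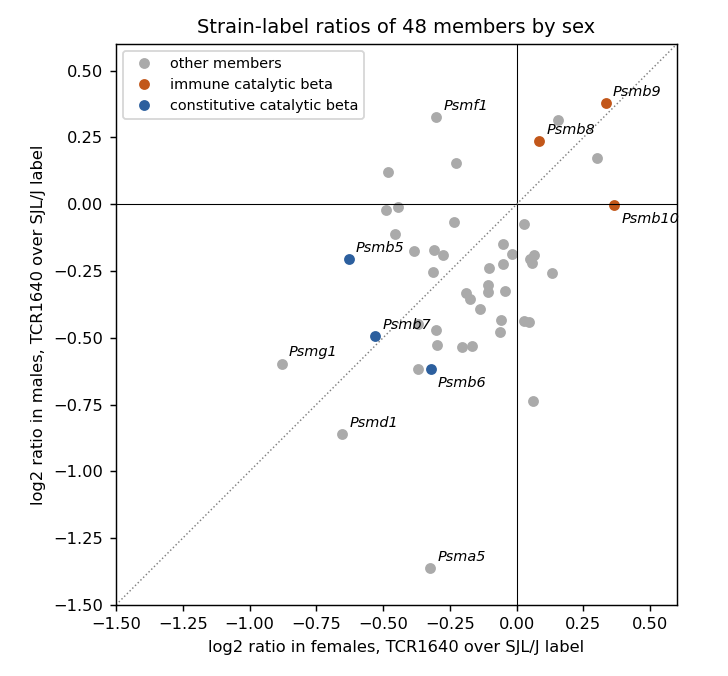
Log2 fold change, TCR1640 over SJL/J, of each tested member in females (horizontal) and males (vertical), each from 1 summed sample per group, with the immune and the constitutive catalytic subunits coloured. Of 48 points, 32 lie below 0 on both axes and 4 above 0 on both.

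Between the sexes, over both strain labels, edgeR called 0 of 48 members at an adjusted p of 0.05, where 1.1% of all genes passed (0.139% higher and 0.962% lower in males). At an unadjusted p under 0.05 there were 5, all higher in males (Psmb5, Psmb6, Psmb8, Psmb1 and Psmb2), beside 9.48% of all genes (3.05% higher and 6.43% lower in males), and DESeq2 called 0, with 0 at an unadjusted p under 0.05. The largest of these values was that of Psmb5, a log2 fold change of 0.63, male over female (edgeR adjusted p = 0.216). By the same rule on single summed samples, 4 members were higher in males under the TCR1640 label and 0 lower, against 6.26% and 9.82% of all genes. They were Psmb5 at 0.86 (95% counting interval 0.33 to 1.40), Psmb2 at 0.54 (0.19 to 0.88), Psmd3 at 0.40 (0.24 to 0.56) and Psmb8 at 0.34 (0.20 to 0.47); without TCR1640 female replicate 1 there were 2 and without TCR1640 female replicate 2 there were 7. Under the SJL/J label 6 were higher in males and 0 lower, against 5.92% and 7.45%, namely Psmg2, Psma5, Psmb6, Psma7, Psmb1 and Psme2, at 0.35 to 0.77.

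Opposite-strand genes shared exon sequence with 12 of the 50 members. Of the 36 tested members without such overlap, 5 passed between strain labels, all lower (Psmb6, Psmc1, Psmd6, Psmd7 and Psmg1), so 7 of the 12 calls, Psmb9 and Psmd1 among them, were on overlapped members. Over all genes tested, overlapped or not, 26.5% passed, and 13.1% of all genes tested were called lower in the TCR1640 libraries. The share among the 11191 tested genes without overlap is not given here. The partner held more counts than the member for Psmb7, Psmb8, Psmb9 (Tap1, 5073 to 4694), Psmd13 and Psmd9. Psme1 shares 14 bases with Emc9, which held 2332 counts to its 6904. What part these opposite-strand reads have in the members' values was not tested. Lack of overlap does not show that a member was counted on its own strand, which was not tested either.

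**Figure D5:**
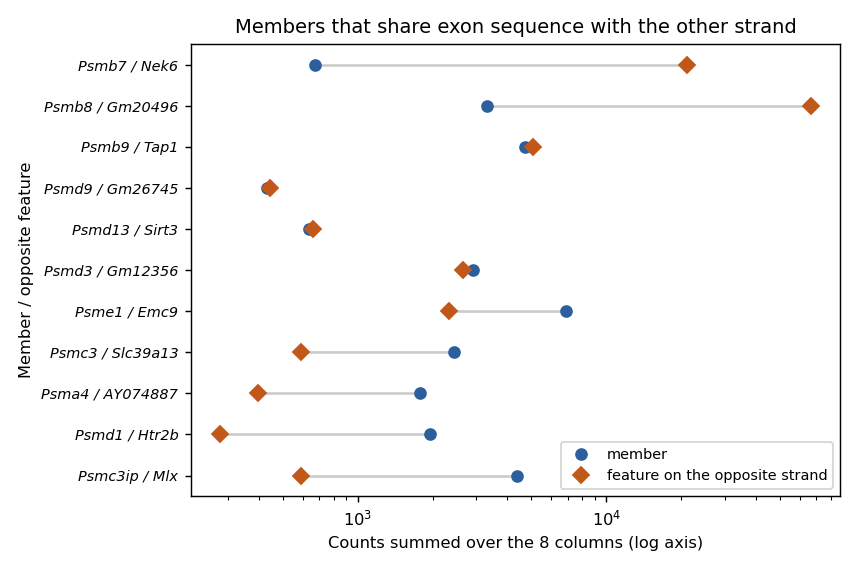
Counts summed over the 8 columns (horizontal log axis) of each overlapped member (circle) and of the gene that shares exon sequence with it on the opposite strand (diamond), for 11 of the 12 pairs; that of Psma5, whose partner held 3 counts, is not drawn. The diamond lies far to the right of the circle for Gm20496 with Psmb8 (66641 to 3306) and Nek6 with Psmb7 (21045 to 671).

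Processed copies of these genes elsewhere in the genome held counts as well. At 90% identity or more over at least 200 bases, 18 members had 34 copies among the annotated transcripts of pseudogenes and other members. Of 21 pseudogene copies with enough counts to test, 17 had a log2 fold change below 0 between strain labels (median -0.32), 3 were called lower and 0 higher by edgeR. The 3 were Gm12989 (-0.65) and Gm8394 (-0.91), copies of Psma5, and Gm4950 (-0.83), a copy of Psmb3. Over all genes tested 13.1% were called lower and 13.4% higher, so 3 of 21 copies called lower was near the background. By sign, 8482 of the 17261 genes tested were below 0. Gm13835 held 583 counts to the 317 of Psma3, to which it is 100% identical over 685 bases, Gm12989 held 308 to the 175 of Psma5, and Gm14048 held 839 to the 485 of Psmd11. Counts of members and such copies are uncertain in how they were divided.

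Of the genes that work with or regulate the proteasome, 28 were tested. Between strain labels 2 were higher, 4 lower and 22 did not pass (median -0.19), against 13.4% higher and 13.1% lower of all genes tested. The lower ones were the F-box protein gene Fbxo7 (-0.78, edgeR adjusted p = 0.011), the ubiquitin-binding factor Zfand5 (-0.73, edgeR adjusted p = 8.91e-05), the core maturation factor Pomp (-0.44, edgeR adjusted p = 0.0211) and the Vcp cofactor Nploc4 (-0.40, edgeR adjusted p = 0.036). Ddi2 (0.40, edgeR adjusted p = 0.0473), the protease that activates Nfe2l1, was among the higher ones. Nfe2l1 itself did not pass (edgeR adjusted p = 0.257). The calls of Zfand5 and Fbxo7 held with any one column left out. That of Pomp was lost without TCR1640 female replicate 1, TCR1640 male replicate 2 or SJL/J male replicate 2, that of Nploc4 in 5 of the 8 such settings and that of Ddi2 in 6. Exons of Fbxo7 also share sequence with an opposite-strand gene.

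Of the interferon gamma pathway and the peptide-loading genes, 17 were tested. These gave 7 higher, 3 lower and 7 not passing, against 13.4% higher and 13.1% lower of all genes tested. Those that rose included the receptor chain Ifngr2 (0.92, edgeR adjusted p = 0.00566), the kinase Jak1 (0.84, edgeR adjusted p = 5.21e-10), the factors Irf1 (0.82, edgeR adjusted p = 1.3e-10) and Irf8 (0.41, edgeR adjusted p = 0.0111), and the MHC class I activator Nlrc5 (0.69, edgeR adjusted p = 1.5e-05). The MHC class I light chain B2m rose too (0.37, edgeR adjusted p = 0.00848). The 3 that fell are chaperones of the endoplasmic reticulum that help load MHC class I, Calr (-0.71, edgeR adjusted p = 3.48e-08), Canx (-0.55, edgeR adjusted p = 9.85e-05) and Pdia3. The list's median was 0.27, and Ifng itself did not pass (-0.36, edgeR adjusted p = 0.168). Without TCR1640 male replicate 2 the calls of Ifngr2, Irf8 and B2m were lost, and that of Ifngr2 also without SJL/J female replicate 1. Irf1, Nlrc5, Jak1 and Pdia3 are overlapped on the opposite strand. In neither list did edgeR call a gene between the sexes.

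Markers of other cells and of division moved with the strain label, where 13.4% of all genes tested were called higher and 13.1% lower. Of 10 proliferation genes 9 were lower under the TCR1640 label, their summed level being 682 and 726 CPM in TCR1640 females and males against 1058 and 1093 in SJL/J females and males. All 5 platelet markers were lower, at 10.3 and 11.2 against 148 and 254, with Ppbp at 0 in both TCR1640 groups and Gp1bb at 0 in TCR1640 females. Of 6 neutrophil markers 4 were lower and 1 higher (16.0 and 14.0 against 53.8 and 131), with S100a8 and Elane at 0 in both TCR1640 groups, and of 6 mast cell and basophil markers 5 were lower and 1 higher. Of the T cell markers 3 of 8 were higher and 1 lower (1490 and 1587 against 1221 and 1352), and Cd8a and Cd8b1 were higher while Cd4 was lower. Of 5 B cell markers tested 3 were higher and 1 lower (44.6 and 46.5 against 28.6 and 34.2), 1 of 4 monocyte and macrophage markers and 1 of 5 erythroid markers were lower, and neither dendritic cell marker tested passed. Of 5 thymic epithelial markers 2 were tested, of which 1 was higher under the TCR1640 label and 1 did not pass. The defining thymic epithelial gene Foxn1 had at most 2 counts, beside the near-absent thymic subunit Psmb11. Some markers were called between the sexes as well, all higher in males: 3 of 6 neutrophil genes (S100a8, S100a9 and Elane), 2 of 5 platelet genes (Pf4 and Ppbp) and the erythroid gene Hba-a1. S100a9 had 209 counts in SJL/J females and 528 in SJL/J males, and 5 and 3 in TCR1640 females and males. The part of these markers in the members' differences, between strain labels or sexes, was not tested.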

How the data were processed

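RNA-seq libraries of cultured mouse immune cells were read from 1 deposited table of whole-number counts per Ensembl gene, which the authors made with bcl2fastq 2.17, Bowtie2 and HTSeq on mm10, per the submitters' processing notes; no source used here gives the strand setting or the annotation release. Symbols, positions and overlaps came from GENCODE release 21 (147 identifiers did not match), and promoters from RefSeq. The columns of each group were summed and counted as 1 sample, since they differed by little more than sampling noise, so p-values measure only the spread between these sums, which may be technical.

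Strain label and sex were tested in an additive model of the 4 sums (1 residual degree of freedom) with edgeR 4.0.16 (R 4.3.3, TMM scaling, its default filter on low counts, 17261 genes, two-sided quasi-likelihood test, Benjamini-Hochberg adjusted p at 0.05); the common coefficient of variation was 9.78%. Single groups were compared as log2 ratios with exact 95% counting intervals and no test, a call being a log2 ratio of at least 0.32 in size with an interval that excludes equality. Intervals cover counting error only. Promoter motifs were searched on both strands. DESeq2 1.42.0, other scalings, other filters, the 8 columns unsummed and leaving out each column were alternatives, and the scripts were tested on simulated data.

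Members and gene lists were chosen with earlier results of these data known. Genes named by rule were the catalytic subunits, the activators, Psmf1, the members with the highest and lowest strain change in each class with a mean of at least 50 counts, members under 10 counts, any called for sex, and the 3 highest and lowest called of each pathway list. Psma5, Psmc3, Psmd6, Psmd7, Psmd13, Psmg1, Irf8, Nlrc5, B2m, the members past the fold between single groups, the overlapping genes and the copies were named after their values were seen. Some genes of these lists and one promoter motif are not reported here.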

Additional observations from a re-analysis of the deposited data

Results flagged for a closer look

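The difference between the sexes itself differed between the strain labels for 4 of the 48 tested members, by the interaction term of an edgeR fit to the 8 columns, in which 10.2% of all genes passed. Columns of a group differ by little more than sampling noise, so that fit compares these libraries and not the conditions, and each of the 4 was flagged for that term alone. For Psmd3, a lid subunit, the interaction was 0.46 on the log2 scale (edgeR adjusted p = 0.00141), with male over female at 0.40 under the TCR1640 label and -0.07 under SJL/J. For the alpha ring subunit Psma7 it was -0.46 (edgeR adjusted p = 0.0466), with 0.00 and 0.46. For the ATPase Psmc3 it was -0.36 (edgeR adjusted p = 0.0379), with -0.11 and 0.25, and for Psmc3ip it was -0.26 (edgeR adjusted p = 0.0372), with -0.14 and 0.11.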

How the results depend on the processing

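Calls over all genes tested are given in brackets. The 12 members called between strain labels (4572 of 17261 genes) numbered 7 with no filter on low counts (4152 of 32865). Scaled on genes without opposite-strand overlap they numbered 8 (4181 of 17261), with the calls of Psmb6, Psma4, Psmc1 and Psmc3 lost. With the 8 columns unsummed they numbered 21 without a replicate block (6549 of 15281) and 19 with it (6443 of 15793). DESeq2 called 1 (1339 of 18674). There were 5 among members without overlap, an alternative added after seeing the data, and 5 to 10 with a column left out (3553 to 4330 genes). The replicate numbers did not pair the samples: deviations of same-numbered columns correlated at 0.05 to 0.09. Between sexes, where 0 members were called, the 8 columns gave 3 (1169 of 15281 genes) and the replicate block 2 (873 of 15793). With any column left out there were 0. At a fold of 1.5 the 11 members past the fold in females were 3 and the 21 in males 6, the 4 between the sexes under the TCR1640 label were 1 and the 6 under SJL/J were 2. With no minimum fold, 18 members passed in females, 29 in males, 8 between the TCR1640 sexes and 16 between the SJL/J sexes. With a column left out the counts past the usual fold were 9 to 13 in females, 17 to 20 in males, 2 to 7 and 5 to 6. Shares of all genes are not given here for these fold and left-out settings, so these counts cannot be set against a background. The strain difference of 0.74 in the immune to constitutive ratio was 0.67 to 0.81 with a column left out. With opposite-strand features, mostly Gm20496 and Nek6, it was 0.53, which does not measure the same balance. Restricted to pairs without overlap it could not be computed, since Psmb7, Psmb8 and Psmb9 each leave a pair incomplete. Causes of these changes were not tested. For the 28 genes of the members and pathway lists called between strain labels, 361 of 448 values under these alternatives kept the call, 87 lost it and 0 reversed. Depth limits members with few counts: for Psma5 in females, the counting interval of the strain difference ran from -1.03 to 0.37.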
